A study of Sus scrofa with 4 samples.

Results

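The genes described here encode proteins of the spliceosome and of heterogeneous nuclear ribonucleoprotein (hnRNP) particles, measured in the liver of piglets fed a diet with or without added L-carnitine. They were taken by symbol, namely all genes whose symbol begins with SRSF, SNRP, SF3A, SF3B, PRPF, HNRNP, LSM or U2AF, or with RBM and a digit. In total 131 probe sets carried a single such symbol, and a gene was represented by its brightest one, which gave 81 of the 6765 genes with 1 annotated symbol on the array. By family they fall into 11 SR, 17 hnRNP, 16 Sm and LSm, 7 SF3, 9 PRPF, 19 RBM and 2 U2AF genes. The families SR to PRPF follow protein complexes or classes, while the RBM genes share only a type of RNA-binding domain.

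The carnitine group received a basal diet with 500 mg L-carnitine per kg for 21 days, and the control group the basal diet alone. Both groups were male crossbred pigs, (German Landrace x Large White) x Pietrain, of 4 weeks and about 10 kg at the start and of 7 weeks at slaughter, 2.5 h after the last meal. Each diet is represented by 2 pools of liver RNA with 4 pigs in each pool, hybridized to 1 Affymetrix porcine array per pool. Differences between animals of a pool were therefore averaged before the measurement. The p-values and standard errors from limma rest on the spread between pools. For each probe set limma draws this spread towards that of all probe sets of similar signal. Values are MAS5 signals, a linear array unit, given for pool 1 and then pool 2 of a diet. A fold change is the difference of the mean log2 signals, carnitine minus control, with its standard error (SE) from limma.

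Splicing removes introns from pre-mRNA. The Sm and LSm rings package the small nuclear RNAs, the SF3 and U2AF proteins find the branch point and the end of the intron, and the PRPF proteins build and activate the spliceosome. SR proteins mostly promote the use of nearby exons and hnRNP proteins often repress it, so that their balance sets which isoforms a cell makes, and many genes of both families regulate the splicing of their own transcripts.

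All 12 hepatocyte markers were measured, the dimmest with a signal of 20586. Their summed signals were 433245 and 395410 with carnitine against 482367 and 437507 in controls. Of the hepatocyte markers 7 had lower signals in each carnitine pool than in each control pool, as had 3 of 4 erythroid markers, 3 of 7 Kupffer cell markers, 2 of 7 T and NK cell markers, and 1 each of 2 B cell, 4 neutrophil, 7 endothelial and 8 stellate cell markers. Over all probe sets the share lower without overlap was 20.4%, and the share higher 19.2%. Higher signals in both carnitine pools were found for 4 of 5 proliferation markers and for 1 each of the 5 cholangiocyte, 7 Kupffer cell and 7 T and NK cell markers. No measured marker was at 0, but the lowest signal was 0.786 among proliferation, 1.84 among cholangiocyte and 3.05 among T and NK cell markers. Above the array's median signal were 3 of 5 proliferation, 3 of 7 T and NK cell, 1 of 2 B cell, 1 of 5 cholangiocyte and 0 of 4 neutrophil markers.

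The proliferation markers summed to 962 and 1026 with carnitine and 743 and 715 in controls, and the erythroid markers to 1267 and 781 with carnitine and 1534 and 2162 in controls. For T and NK cells the marker sums were 931 and 757 with carnitine and 1331 and 933 in controls, those of the neutrophil markers 98.2 and 142 with carnitine and 167 and 146 in controls, and the Kupffer and B cell sums overlapped. Control pool 2 carried the largest stellate cell sum, 14658, while it was 6862 and 6396 with carnitine and 5040 in control pool 1. The summed endothelial markers were 3745 and 2448 with carnitine and 2923 and 5319 in controls. For the cholangiocyte markers the sums were 453 and 559 with carnitine and 339 and 1218 in controls. The 3' to 5' signal ratio of a GAPDH control was 18.7 and 16.1 with carnitine and 12.5 and 11.6 in controls, while a second GAPDH control gave overlapping ratios of 9.65 and 11.1 with carnitine against 10.2 and 9.04 in controls. The ratio of an actin control was 157 and 136 with carnitine against 91.2 and 86.7 in controls. A second actin control overlapped, at 0.332 and 1.05 with carnitine against 0.366 and 0.220 in controls. An EF1A control overlapped as well, at 23.4 and 29.6 with carnitine against 57.9 and 18.2 in controls. Controls of the array that are bacterial sequences and not pig genes had other patterns. The ratio of a Dap control was lower with carnitine, at 16.5 and 9.54 against 21.9 and 22.8 in controls. So was that of a Thr control, at 22.2 and 14.7 with carnitine against 26.2 and 27.8 in controls. A Lys control overlapped, at 4.21 and 5.12 with carnitine against 3.64 and 4.61 in controls. The part of these differences in the results below was not tested. Fewer cells of a type and less RNA per cell cannot be told apart in pooled tissue.

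Splicing and hnRNP genes as a whole had slightly higher signals with carnitine, but 0 of the 81 genes passed the test. The log2 fold change was positive for 58 of the 81 genes and negative for 23, at a median of 0.16, while over all 6765 genes 3324 lay above 0 and the median was -0.01. After Benjamini-Hochberg adjustment over all probe sets in limma, the smallest adjusted p of the 81 genes was 0.399, and 0.00417% of all probe sets passed. A one-factor analysis of variance with the same adjustment also passed 0 of the 81 genes. At an unadjusted p under 0.05, 8 genes were higher (9.88% of the 81), against 4.72% of all probe sets and 6.56% of the 6765 genes. In the other direction 1 gene was lower (1.23%), against 3.93% of all probe sets and 3.99% of all genes.

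Signals in both carnitine pools lay above those in both control pools for 24 genes (29.6% of the 81), against 19.2% of all probe sets and 21.5% of all genes. The reverse held for 10 genes (12.3%), against 20.4% of all probe sets and 21.0% of all genes. Most differences were small, with 63 of the 81 genes under 0.5 in absolute log2 fold change and 2 at 2-fold or more. An exact permutation test of 2 against 2 pools has a smallest two-sided p of 0.333. The shift depended on control pool 2. Without it 45 of 81 genes lay above 0 and the median was 0.05, whereas without control pool 1 there were 54 genes and a median of 0.12. Over all 6765 genes 3342 lay above 0 without control pool 2 and 3324 without control pool 1, with a median of -0.01 in either fit. More genes were higher at an unadjusted p when 1 control pool was left out, and fewer when 1 carnitine pool was. The number lower also changed with the pool left out. In such a fit the spread comes only from the diet that keeps 2 pools. The share of all genes at an unadjusted p was not computed for these fits.

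**Figure D1:**
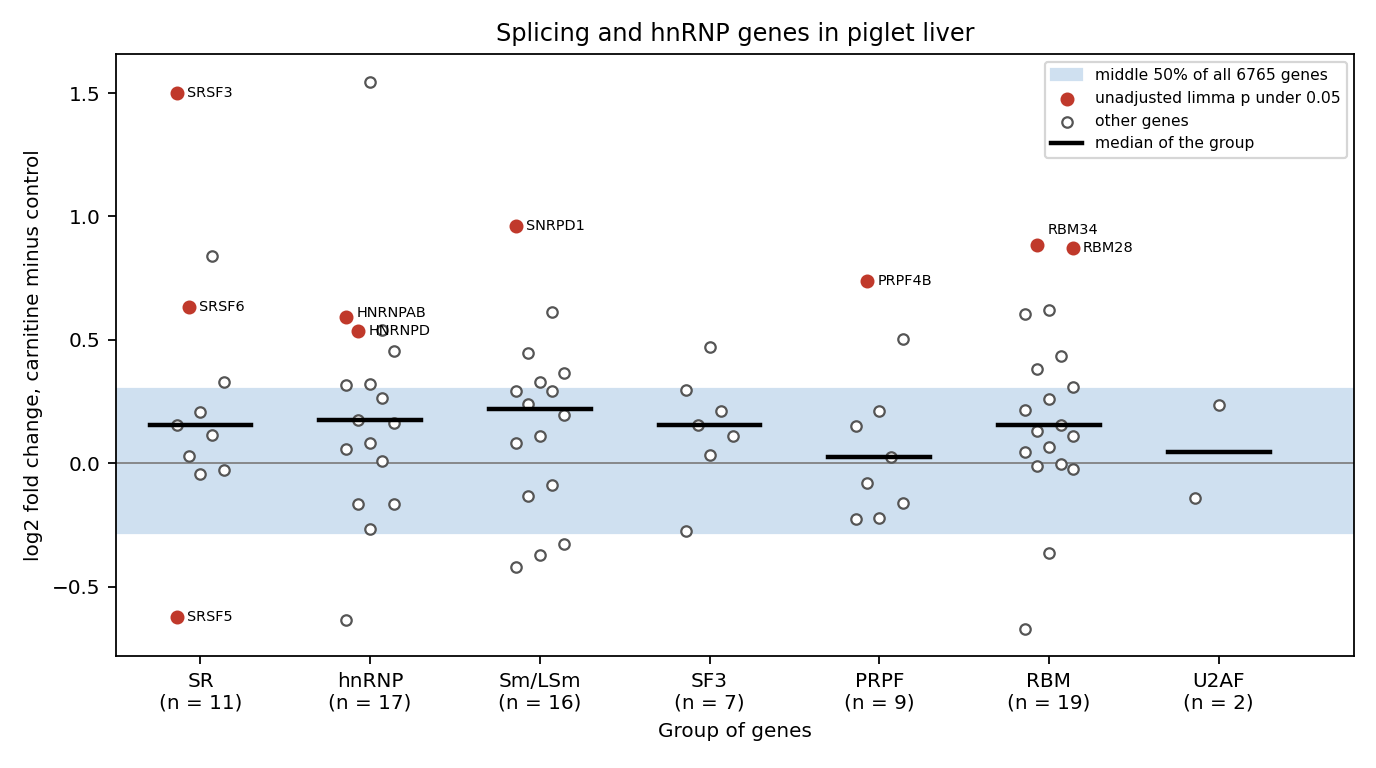
Log2 fold change (carnitine minus control) of the 81 genes by family, with a black bar at the median of each family, filled points for genes with an unadjusted limma p under 0.05 and a blue band for the middle 50% of all 6765 genes. Most points lie inside the band, and 8 of the 9 filled points lie above 0, with SRSF5 below it.

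SR genes differed in both directions. SRSF3 and SRSF6 had higher and SRSF5 lower signals in both carnitine pools, while the median over the 11 genes was 0.16, and -0.01 without control pool 2. Without overlap of the pools 3 genes were higher (27.3%, against 21.5% of all genes) and 1 lower (9.09%, against 21.0%). At an unadjusted p under 0.05 in limma, 2 were higher (18.2%, against 6.56% of all genes) and 1 lower (9.09%, against 3.99%). SRSF3, the smallest of the classical SR proteins, had signals of 6776 and 7886 with carnitine against 4000.3 and 1666 in controls. The carnitine pools lay close together and above both control pools, which differed from each other by more than 2-fold. The log2 fold change of SRSF3 was 1.50 ± 0.38 SE (adjusted p = 0.399 in limma), and leaving out control pool 2 gave 0.87, control pool 1 gave 2.13.

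SRSF6, an SR protein that acts on alternative exons, had 3278 and 3240 with carnitine against 2413 and 1829 in controls (log2 fold change 0.63 ± 0.21 SE, adjusted p = 0.466 in limma). SRSF5, which was first described in regenerating rat liver, went the other way, at 4214 and 3555 with carnitine against 6463 and 5499 in controls. Its log2 fold change was -0.62 ± 0.20 SE (adjusted p = 0.460 in limma), and between -0.75 and -0.50 when any 1 pool was left out. The pools of the 2 diets did not overlap for either gene.

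SRSF2, which binds exonic enhancers and had the brightest SR probe set, overlapped between the diets, at 5080.0 and 4965 with carnitine against 5901 and 3640.4 in controls (log2 fold change 0.12 ± 0.25 SE). SRSF4 had 994 and 1027 with carnitine against 825 and 929 in controls, which did not overlap (0.21 ± 0.20 SE). For SRSF1, the founding member of the family, the signals were 2265 and 1844 with carnitine against 2280.1 and 1162 in controls. SRSF7, SRSF9, SRSF10 and SRSF11 overlapped between the diets as well, with log2 fold changes between -0.04 and 0.16. SRSF12 was dim, with signals from 4.77 to 43.8, both in controls.

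**Figure D2:**
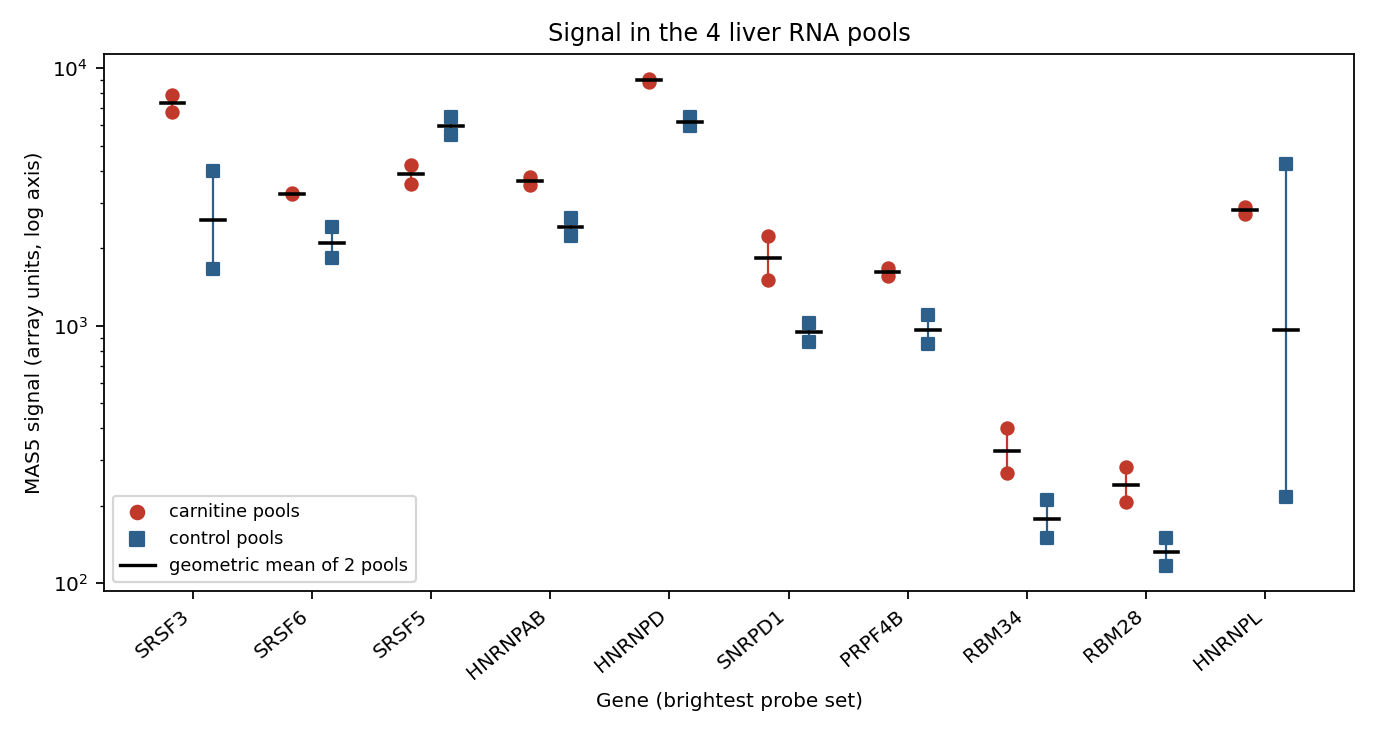
MAS5 signal (log axis) of the 9 genes with an unadjusted p under 0.05 and of HNRNPL in each pool, with circles for carnitine, squares for control and a black tick at the geometric mean of each diet. The diets do not overlap for the first 9 genes, whereas the control pools of HNRNPL lie on either side of the carnitine pools.

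The array holds several probe sets for some of these genes, and they did not always move together. Of the 81 genes, 50 had 1 probe set and 31 had several, up to 6 for SRSF6. The log2 fold changes of a gene's probe sets had the same sign for 14 of the 31 genes and mixed signs for 17. In 9 genes another probe set differed by at least 1 from the one used.

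SRSF6 had 6 probe sets above the median signal of the array. In 4 of them the fold change was above 0, between 0.33 and 0.64. In the remaining probe sets it was -0.31 ± 0.18 SE and -0.74 ± 0.21 SE, the last with signals of 834 and 667 with carnitine against 1198 and 1294 in controls. These opposite differences were each without overlap between the diets, so that the direction of SRSF6 depends on the probe set. The mean over its probe sets gave 0.16, not under an unadjusted p of 0.05.

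For HNRNPA2B1, a core hnRNP protein, the brightest probe set had nearly level signals of 7961 and 8549 with carnitine against 7933 and 7927 in controls (log2 fold change 0.06 ± 0.18 SE). A dimmer one had 476 and 751 with carnitine against 235 and 299 in controls, a log2 fold change of 1.17 ± 0.30 SE (adjusted p = 0.399 in limma). A further one had 93.4 and 97.6 with carnitine against 201 and 172 in controls, a log2 fold change of -0.96 ± 0.34 SE (adjusted p = 0.494). A level, a higher and a lower signal were thus read for a single gene, and the annotation used here does not assign the probe sets to isoforms.

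SRSF1 gave log2 fold changes of 0.33, 1.26 and -0.06, the second with a signal of 117 in control pool 2 and 448 in control pool 1. Besides SRSF6 and HNRNPA2B1, the genes with a probe set at least 1 away from the one used were HNRNPUL1, PRPF38B, RBM12B, RBM39, RBM42, SRSF10 and SRSF11, where the discordant one was dimmer than the array's median. HNRNPD agreed between its probe sets, at 0.53 and 0.50, and HNRNPDL gave 0.32 and 0.63.

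**Figure D3:**
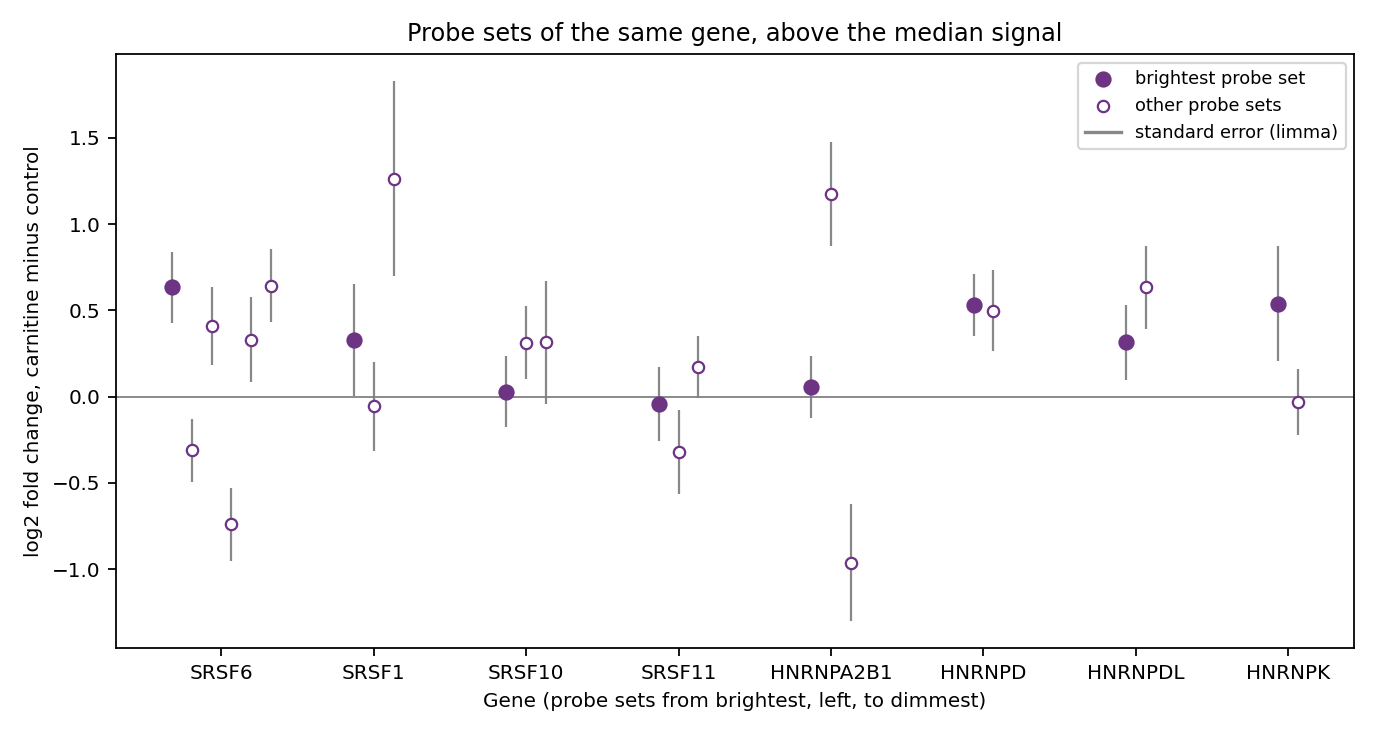
Log2 fold change (carnitine minus control) with its limma standard error for the probe sets above the median signal of 8 SR and hnRNP genes, ordered from the brightest (filled) to the dimmest. SRSF6, SRSF1, SRSF11, HNRNPA2B1 and HNRNPK have probe sets on both sides of 0, while both of HNRNPD lie near 0.5.

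hnRNP genes were mostly bright, with a median signal of 2974, against 425 over all genes. Of the 17 genes, 13 had a log2 fold change above 0, with a median of 0.18, and 7 were higher (41.2%, against 21.5% of all genes) and 2 lower (11.8%, against 21.0%) with carnitine without overlap of the pools. At an unadjusted p under 0.05, HNRNPAB and HNRNPD were higher (11.8%, against 6.56% of all genes) and 0 genes lower (against 3.99%), and 0 passed after adjustment. Without control pool 2, the count above 0 was 9 of 17 (52.9%, against 49.4% of all genes) and the median 0.03. Without carnitine pool 2 the median was 0.11.

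HNRNPD (AUF1) binds AU-rich elements that govern mRNA decay. It had 8830 and 9128 with carnitine against 6457 and 5950.3 in controls (log2 fold change 0.53 ± 0.18 SE, adjusted p = 0.478 in limma). HNRNPAB, a close relative, had 3533 and 3772 with carnitine against 2624 and 2236 in controls (0.59 ± 0.19 SE, adjusted p = 0.461). The pools of both genes were tight within each diet and separated between them.

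HNRNPU, a nuclear scaffold protein, had the lowest fold change of the family. Its signals were 155 and 192 with carnitine against 265 and 272 in controls (log2 fold change -0.64 ± 0.29 SE, adjusted p = 0.600). HNRNPA1, which represses exons and is the partner of HNRNPA2B1 in the core particle, was lower without overlap by a small amount, at 5466 and 5134 with carnitine against 5890.4 and 6002 in controls.

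For HNRNPL and HNRNPK a single control pool carried the difference. HNRNPL, which binds CA repeats, had 2717 and 2902 with carnitine, but 4250.3 and 217 in controls. Its log2 fold change was 1.55 ± 1.15 SE (adjusted p = 0.743 in limma), 3.69 without control pool 1 (adjusted p = 0.00661), where control pool 2 alone stood for the diet and was assumed to vary like the carnitine pools, and -0.60 without control pool 2. From arithmetic means of the signals it was 0.33. HNRNPK, which binds C-rich RNA, had 8125 and 8101 with carnitine against 3852 and 8085 in controls (0.54 ± 0.33 SE), a difference that became 0.01 on leaving out control pool 1 and 1.07 on leaving out control pool 2. Its dimmer probe set gave -0.03 and the mean over both 0.25. HNRNPH2 had a similar form, at 667 and 703 with carnitine against 362 and 689 in controls.

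HNRNPM, which binds GU-rich sequences, had 689 and 693 with carnitine against 587 and 522 in controls (log2 fold change 0.32 ± 0.21 SE, adjusted p = 0.711). Another probe set, which the study names hnRNP M, has no symbol in the annotation used here and is not among the 81 genes. It gave 20.8 and 26.7 with carnitine against 0.788 and 10.7 in controls, with a mean signal at the 11.3 percentile of the array, and its standard error was 1.31 on a log2 fold change of 3.02. HNRNPC, HNRNPA3, HNRNPH1, HNRNPH3, HNRNPDL and HNRNPUL1 overlapped between the diets, while HNRNPF and HNRNPR were higher in both carnitine pools with log2 fold changes of 0.26 and 0.16.

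Sm and LSm genes had the highest median of the families, 0.22 over 16 genes, with 11 above and 5 below 0. The pools separated as often in either direction, with 3 genes higher (18.75%, against 21.5% of all genes) and 3 lower (18.75%, against 21.0%). SNRPD1 alone reached an unadjusted p under 0.05 (6.25% higher, against 6.56% of all genes), and no gene passed after adjustment. SNRPD1 encodes SmD1, a subunit of the Sm ring around the spliceosomal small nuclear RNAs. Its signals were 1507 and 2237 with carnitine against 1029 and 863 in controls, a log2 fold change of 0.96 ± 0.25 SE (adjusted p = 0.399 in limma), and it stayed between 0.68 and 1.25 when any 1 pool was left out.

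None of the other Sm ring genes reached an unadjusted p under 0.05. SNRPD3 had 2484 and 2836 with carnitine against 1658 and 2687 in controls, which overlapped, and its log2 fold change became -0.02 on leaving out control pool 1 and 0.68 on leaving out control pool 2. SNRPB, which encodes the SmB proteins, was lower without overlap at 813 and 729 with carnitine against 1097 and 905 in controls (log2 fold change -0.37 ± 0.21 SE). SNRPN, which encodes an SmB relative best known from brain, was lower as well, at 953 and 892 with carnitine against 1472 and 1034 in controls (-0.42 ± 0.23 SE). Without control pool 1 SNRPB was -0.23 and SNRPN -0.16, and SNRPN was -0.67 without control pool 2 and -0.22 as the mean over probe sets. Whether the probes tell these close relatives apart was not tested. SNRPF and SNRPG had log2 fold changes of -0.09 and -0.13, and a dimmer probe set of SNRPG gave 0.75.

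SNRPA, SNRPC, SNRPA1 and SNRPB2 belong to this family by symbol but are specific proteins of the U1 and U2 particles, not ring subunits. SNRPB2 had 583 and 493 with carnitine against 394 and 439 in controls (log2 fold change 0.37 ± 0.23 SE), and the pools of the other 3 overlapped. Among the LSm genes, which form the ring on U6 RNA and a related ring in mRNA decay, LSM2, LSM3, LSM6 and LSM7 had log2 fold changes between 0.11 and 0.61. For LSM7 the signals were 1179 and 1101 with carnitine against 471 and 1177 in controls, so that control pool 1 alone was low. LSM12 and LSM14A, which lie outside these rings, overlapped between the diets.

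The median of the Sm and LSm genes turned on the choice of control pool. It was 0.43 without control pool 2, with 11 of 16 genes above 0 (68.75%, against 49.4% of all genes). Without control pool 1 it was -0.02, with 5 of 16 above 0 (31.25%, against 49.1% of all genes). Centred on each gene's mean over the 4 arrays, the family's median log2 level was 0.03 and 0.17 with carnitine and -0.29 and 0.06 in controls. SR genes showed the reverse order of the control pools, at 0.07 and 0.13 with carnitine against 0.02 and -0.22 in controls, and hnRNP genes had 0.10 and 0.12 with carnitine against 0.01 and -0.20 in controls. The median over all genes was between 0.00 and 0.02 on every array.

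Control pool 2 was the low one for SR, hnRNP and RBM genes and control pool 1 for Sm, LSm and SF3 genes. Between the carnitine pools the 81 genes varied less. Their median absolute difference on the log2 scale was 0.16 between the carnitine pools and 0.38 between the control pools. Over all 6765 genes it was 0.26 between the carnitine pools and 0.36 between the control pools. By 2-fold or more, 0 of these genes differed between the carnitine pools and 8 between the control pools, and the share over all genes was not computed. Between pools of different diets the median absolute difference was from 0.25 to 0.33 and the number of genes at 2-fold from 4 to 7. By both measures the control pools were further from each other than from either carnitine pool. Control pool 2 also had the largest stellate, endothelial and cholangiocyte sums given above, whose part in this was not tested.

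**Figure D4:**
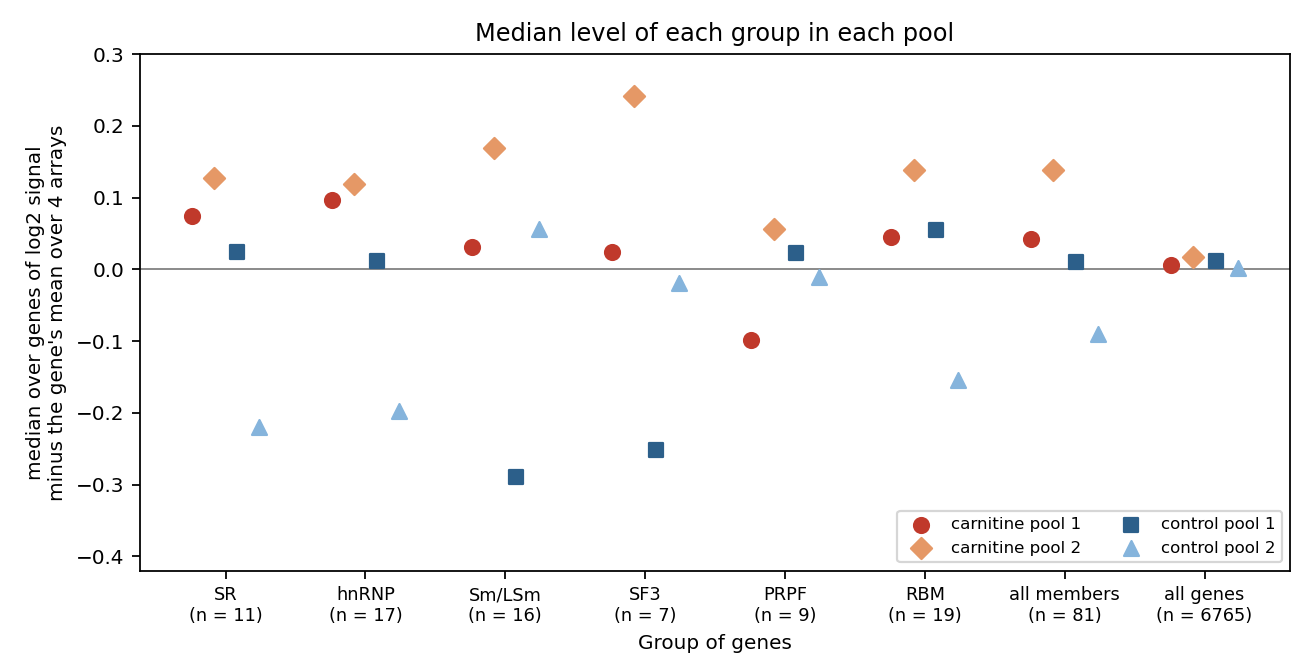
Median over the genes of each family of the log2 signal minus the gene's mean over the 4 arrays, with 1 point per pool. Control pool 2 is low for SR, hnRNP and RBM genes, control pool 1 is low for Sm/LSm and SF3 genes, and all 4 pools lie near 0 over all genes.

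SF3 genes, whose products recognize the branch point within the U2 particle, differed little. Of 7 genes 6 lay above 0, with a median of 0.15, and 0 reached an unadjusted p under 0.05. The pools did not overlap for 2 higher genes (28.6%, against 21.5% of all genes) and 1 lower gene (14.3%, against 21.0%). SF3A3 had 1217 and 1404 with carnitine against 808 and 1102 in controls (log2 fold change 0.47 ± 0.23 SE, adjusted p = 0.625 in limma, and 0.25 without control pool 1), and SF3B4 had 703 and 827 with carnitine against 566 and 679 in controls. SF3B1, the large scaffold subunit and the brightest of the family, was the only one below 0, at 2780 and 2747 with carnitine against 3997 and 2795 in controls (log2 fold change -0.27 ± 0.22 SE). Without control pool 1 its value was -0.02. SF3A1, SF3B2, SF3B5 and SF3B6 overlapped between the diets. Leaving out carnitine pool 1 gave a family median of 0.32, leaving out carnitine pool 2 one of 0.04 and leaving out control pool 2 one of 0.31.

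PRPF genes lay on both sides of 0, with 5 of 9 above it and a median of 0.03. The median was -0.02 without carnitine pool 1, -0.14 without carnitine pool 2 and -0.05 without control pool 2. Without overlap of the pools 2 genes were higher (22.2%, against 21.5% of all genes) and 1 lower (11.1%, against 21.0%). PRPF4B, a kinase that phosphorylates other PRPF proteins, had 1555 and 1672 with carnitine against 1105 and 847 in controls (log2 fold change 0.74 ± 0.21 SE, adjusted p = 0.429 in limma). PRPF4, a subunit of the U4/U6 particle, had 1092 and 1103 with carnitine against 896 and 670.2 in controls (0.50 ± 0.22 SE, adjusted p = 0.592), and 0.29 without control pool 2. Its partners PRPF3 and PRPF31 had log2 fold changes of 0.15 and 0.03. PRPF39 was lower without overlap, at 1210.3 and 1204 with carnitine against 1423 and 1395 in controls (-0.22 ± 0.19 SE). PRPF18, PRPF19, PRPF38A and PRPF38B overlapped between the diets.

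RBM genes had a median of 0.16 over 19 genes, with 14 above and 5 below 0 and 7 higher (36.8%, against 21.5% of all genes) and 2 lower (10.5%, against 21.0%) in both carnitine pools. Without control pool 2 the median was 0.09. The genes that reached an unadjusted p under 0.05 were RBM34 and RBM28, which encode nucleolar proteins (10.5% higher, against 6.56% of all genes). RBM34 had 268 and 399.5 with carnitine against 150.0 and 210.2 in controls (log2 fold change 0.88 ± 0.33 SE, adjusted p = 0.527 in limma). RBM28 had 283 and 206 with carnitine against 150.3 and 116 in controls (0.87 ± 0.34 SE, adjusted p = 0.534). Both probe sets were among the dimmer ones of the family, and the 2 diets did not overlap in either. With the mean over probe sets RBM34 was not under an unadjusted p of 0.05.

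RBM8A (Y14), a core subunit of the exon junction complex, had 1136 and 1434 with carnitine against 1069 and 645 in controls (log2 fold change 0.62 ± 0.28 SE, adjusted p = 0.605 in limma), and its dimmer probe set gave 0.12. Leaving out control pool 1 gave 0.98, leaving out control pool 2 gave 0.26, and the mean over probe sets was 0.37. RBM7, which guides nuclear RNA to the exosome, had 691 and 681 with carnitine against 473 and 545 in controls (0.43 ± 0.22 SE). RBM5, a regulator of exon choice, had 642 and 505 with carnitine against 1267 and 649.6 in controls (-0.67 ± 0.34 SE, adjusted p = 0.631), with control pool 1 alone far above the other pools. RBM26 was the brightest and overlapped, at 2842 and 3059.7 with carnitine against 3294 and 2650.0 in controls. RBM42 (0.95 as the mean over probe sets), RBM19 and RBM15B were higher and RBM18 lower without overlap, with log2 fold changes between -0.37 and 0.31. Dimmer probe sets gave -0.65 for RBM19 and 0.08 for RBM18. RBM3, RBM4, RBM6, RBM12B, RBM17, RBM23, RBM25, RBM39 and RBM48 overlapped.

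Both U2AF genes overlapped between the diets, and U2AF2 lay at or below the median signal of the array. U2AF2, the large subunit that binds the polypyrimidine tract, had 114 and 126 with carnitine against 118 and 87.8 in controls. U2AF1L4, a relative of the small subunit, had 204 and 221 with carnitine against 266 and 205 in controls.

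Other genes of the pathway, outside the symbol rule, were read in 5 lists. Of 120 listed genes 76 had a probe set, 50 of them above 0 with a median log2 fold change of 0.16. At an unadjusted p under 0.05, 12 (15.8%) were higher, against 6.56% of all genes, and 2 lower (2.63%, against 3.99%), and 0 passed after adjustment in limma or in a one-factor analysis of variance. Fewer were higher when 1 carnitine pool was left out, and the number lower also changed with the pool left out. Such fits take their spread only from the diet that keeps 2 pools. Shares of all genes at an unadjusted p were not computed for them. Both carnitine pools lay above both control pools for 26 genes (34.2%, against 21.5% of all genes) and below them for 10 (13.2%, against 21.0%).

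The snRNP assembly list, which holds the SMN complex and the enzyme that methylates Sm proteins, had all 10 measured genes above 0, with a median of 0.39, and 4 of them were higher at an unadjusted p under 0.05, a share that was 6.56% over all genes. PRMT5, the methyltransferase that modifies Sm proteins before they are loaded on RNA, had 1813 and 1697 with carnitine against 824 and 931 in controls (log2 fold change 1.00 ± 0.19 SE, adjusted p = 0.302 in limma). WDR77, its obligate partner, had 2246 and 2474 with carnitine against 940.1 and 1112 in controls (1.21 ± 0.20 SE, adjusted p = 0.212). The gap between the diets was larger than the spread between pools for both, and left-out pools moved PRMT5 between 0.91 and 1.09 and WDR77 between 1.08 and 1.33. The mean over the probe sets of PRMT5 gave 0.47, which was no longer under an unadjusted p of 0.05.

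STRAP, a subunit of the SMN complex, had 3070.2 and 3246 with carnitine against 1666 and 1947 in controls (log2 fold change 0.81 ± 0.19 SE, adjusted p = 0.368). GEMIN5, which recognizes the small nuclear RNAs, had 590.3 and 664 with carnitine against 366 and 454 in controls (0.62 ± 0.24 SE), but the mean over its probe sets gave -0.07. CLNS1A, which delivers Sm proteins to PRMT5, was close between the diets, at 1562 and 1455 with carnitine against 1404 and 1421 in controls. SMN1, GEMIN2, GEMIN8 and DDX20 overlapped between the diets.

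Among 9 SR-related and exon junction genes 7 lay above 0, with a median of 0.40. TRA2B, a splicing activator, had 3905 and 3640 with carnitine against 2446 and 2635 in controls (log2 fold change 0.57 ± 0.18 SE, adjusted p = 0.460 in limma). EIF4A3, the helicase of the exon junction complex and partner of RBM8A, had 1013 and 1129 with carnitine against 537 and 806 in controls (0.70 ± 0.25 SE), and 0.41 without control pool 1. ALYREF, an mRNA export adaptor, gave 0.76 ± 0.29 SE and SRRM1, a splicing coactivator, 0.50 ± 0.19 SE. As means over probe sets TRA2B was 0.11 and SRRM1 0.26, neither under an unadjusted p of 0.05.

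The 35 other spliceosome subunits had a median of 0.15, with 22 above 0. Of these DHX15, PPIL1 and SNRNP40 were higher at an unadjusted p under 0.05 (8.57% of the 35, against 6.56% of all genes). DHX15, the helicase that takes the spliceosome apart, had 2745 and 2676 with carnitine against 1764 and 1580.2 in controls (log2 fold change 0.70 ± 0.18 SE, adjusted p = 0.399 in limma). PPIL1, a cyclophilin of the active spliceosome, gave 0.60 and SNRNP40, a U5 protein, 0.55, both with a standard error of 0.23. The mean over the probe sets of PPIL1 gave 0.14, not under an unadjusted p of 0.05, and SNRNP40 was 0.33 without control pool 2 and likewise lost its unadjusted call with that mean. LUC7L3, a U1-associated protein, was lower at 1526 and 987 with carnitine against 2674 and 1669 in controls (-0.78 ± 0.30 SE, adjusted p = 0.537), -0.44 without control pool 1 and -0.47 without carnitine pool 2.

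For 17 hnRNP-like genes the median was 0.00. SYNCRIP had 1379 and 1143 with carnitine against 827 and 874 in controls (0.56 ± 0.20 SE), which was 0.37 and not under an unadjusted p of 0.05 as the mean over probe sets. QKI, a regulator of alternative splicing, had 825 and 650.1 with carnitine against 1054 and 1159 in controls (-0.59 ± 0.22 SE). The kinases that phosphorylate SR proteins and their importer TNPO3 overlapped between the diets in all 5 measured genes. CLK1 had 731 and 446 with carnitine against 1519.7 and 610.2 in controls, a log2 fold change of -0.75 ± 0.44 SE (adjusted p = 0.691) that became -0.10 on leaving out control pool 1, -1.41 on leaving out control pool 2 and -0.40 on leaving out carnitine pool 2. TNPO3 had 481 and 643 with carnitine against 493 and 480.2 in controls.

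**Figure D5:**
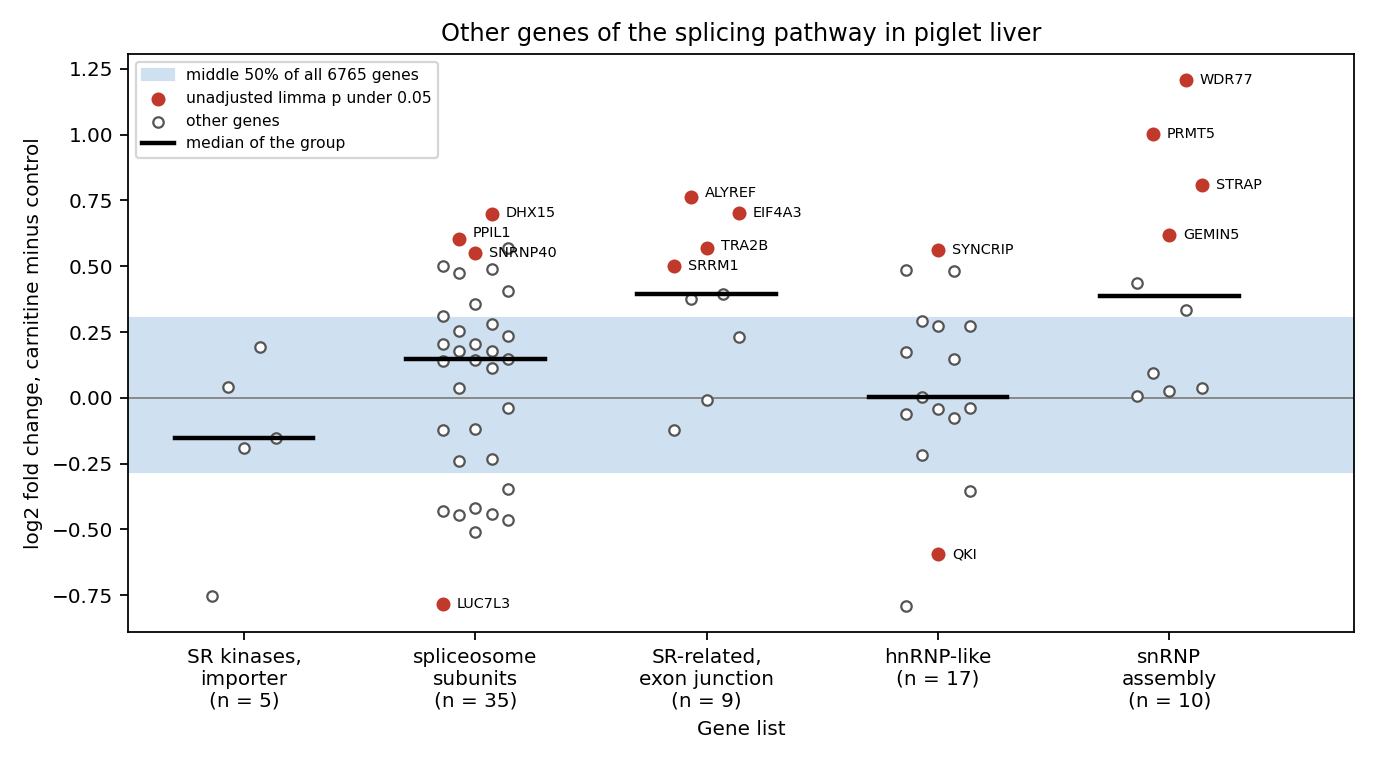
Log2 fold change (carnitine minus control) of 76 other genes of the splicing pathway in 5 lists, with a black bar at the median of each list, filled points for an unadjusted limma p under 0.05 and a blue band for the middle 50% of all 6765 genes. All 10 snRNP assembly genes lie at or above 0, with WDR77 and PRMT5 at the top.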

How the data were processed

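Liver RNA pools were hybridized to 1-colour Affymetrix porcine arrays. The authors' deposited table holds MAS5 signal intensity per probe set on a linear scale, background-subtracted and scaled to a common trimmed mean. Tools listed by the submitters' notes are MAS5 5.0, Expression Console 1.1 and GCOS 1.1.2.

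Of 24123 rows, 124 array controls were removed, and log2 signals of 23999 probe sets, with no pseudocount and no filter, were fitted in limma 3.58.1 (R 4.3.3; lmFit, eBayes with a variance trend) with diet as the factor, on 2 residual degrees of freedom, with Benjamini-Hochberg adjustment at 0.05. A one-factor analysis of variance, which the study's statistics section names without reference to the arrays, was an alternative, adjusted in the same way. It takes the spread of each probe set alone, whereas limma shares it over probe sets. Fits were tested on simulated data. A single symbol was annotated for 10069 probe sets, several for 198 and none for 13732. No symbol changed through the gene table, and no genome coordinates or sequences are given. The pools are labelled biological replicates, and the number of arrays limits the precision.

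Genes named are those with an unadjusted p under 0.05 or a 2-fold difference, the 4 with the smallest p and the brightest of each family, those with discordant probe sets, HNRNPM and, from each other list, the 2 with the smallest p. SRSF1, HNRNPA1, HNRNPH2, LSM7, RBM5, CLNS1A and other genes given with values beside these were chosen after their values were seen. The members, the families, the 5 lists of other splicing genes and the 10 marker lists were all chosen with earlier results of these data known.

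Alternatives were quantile normalization, median centring, a 25th percentile floor, 64 added to each signal, a minimum signal at the array's median or 75th percentile, no variance trend, arithmetic means, the mean over probe sets, symbols as annotated, the replicate number as a block, and leaving out each pool.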

Additional observations from a re-analysis of the deposited data

How the results depend on the processing

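Limits: 2 pools per diet leave 2 residual degrees of freedom, so single pools weigh heavily. Leaving out 1 pool moved the median log2 fold change of all 81 genes between 0.055 and 0.22, of SR genes between -0.0087 and 0.20, of hnRNP genes between 0.029 and 0.21, of Sm and LSm genes between -0.019 and 0.43, of SF3 genes between 0.042 and 0.32 and of PRPF genes between -0.14 and 0.024. Over the same fits the number of the 81 genes called was from 0 to 1 after adjustment (HNRNPL without control pool 1, where the lone control pool is assumed to vary like the carnitine pools), and at an unadjusted p from 1 to 15 higher and from 0 to 6 lower. Of the other splicing genes from 4 to 14 were higher and from 0 to 5 lower. In each of these fits the spread came only from the diet that kept 2 pools, and shares of all genes called were not computed. Among the genes named by rule, log2 fold changes took both signs for HNRNPL (-0.60 to 3.69), HNRNPUL1 (-0.035 to 0.054), PRPF38B (-0.040 to 0.46), RBM26 (-0.16 to 0.15), RBM39 (-0.17 to 0.15), SF3A1 (-0.028 to 0.45), SNRPD3 (-0.018 to 0.68), SRSF10 (-0.12 to 0.18), SRSF11 (-0.28 to 0.20), SRSF2 (-0.23 to 0.46), TNPO3 (-0.016 to 0.40) and U2AF1L4 (-0.33 to 0.048). The signs of other single genes were not followed in these fits. Without the variance trend, 2 of the 81 genes were higher and 0 lower at an unadjusted p, and 3 of the other splicing genes higher and 0 lower. The one-factor analysis of variance called 2 of the 81 genes higher and 1 lower, and 6 of the others higher and 0 lower. Of the other genes 7 were higher with the minimum signal at the 75th percentile, which tests fewer genes, and 5 with the mean over probe sets. That mean ended the unadjusted call of SRSF6, RBM34, PRMT5, PPIL1, SNRNP40, TRA2B, SRRM1, SYNCRIP and GEMIN5. Among the genes named by rule it turned the sign of GEMIN5 (-0.071), PRPF38B (-0.44), PRPF39 (0.065), RBM26 (0.039), RBM39 (0.48), SRSF10 (-0.19) and SRSF11 (0.33). Signs of the remaining genes were not followed under this mean. RBM26 was 0.0084 after quantile normalization and 0.036 after median centring, and RBM39 was 0.028 after median centring. The cause was not tested.

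With the replicate block, 1 of the 81 genes passed the adjusted p (SRSF3, adjusted p = 0.0389 in limma), 2 were lower at an unadjusted p, and 1 of the other splicing genes passed (WDR77, adjusted p = 0.0330). The pools share only a number, and deviations of same-numbered pools from their diet means had a correlation of 0.00488 over all probe sets.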
